A study of Mus musculus with 9 samples.

Results

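Potassium channels were described across 3 regions of the mouse forebrain through every probe set that carries a single gene symbol starting with Kcn. The regions were the BNST (bed nucleus of the stria terminalis), which belongs to the extended amygdala, the ventral striatum or nucleus accumbens (NAc), and its dorsal counterpart (dStr). There were 3 samples per region, called biological replicates in the labels, and the RNA of each was amplified repeatedly and hybridised to an Affymetrix Mouse430_2 array. All tissue was punched from chilled brain slices of mice that were anaesthetised with isoflurane and killed, and the sources used here do not give the strain, sex or age of the animals. Nothing says whether the replicates came from separate animals or pools, so the p-values measure the spread between these samples, which may be partly technical.

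The prefix Kcn selected 167 of the 45037 probe sets, and these represented 84 gene symbols. They were split by name into a voltage-gated group (Kv, 39 genes), an inward rectifier group (Kir, 15 genes named Kcnj), a tandem-pore group (12 genes named Kcnk) and a calcium-activated group (10 genes named Kcnm, Kcnn or Kcnt). A further 5 genes, Kcnip1 to Kcnip4 and Kcnu1, belonged to none of these groups, and 3 symbols, Kcnq1ot1, Kcnmb4os1 and Kcnmb4os2, were non-coding RNAs that share the prefix. A total of 122 probe sets exceeded the 40th percentile of their array on at least 3 of the 9 arrays, and they left 66 genes for testing among 14208 genes in all. The 66 include 2 non-coding RNAs, Kcnq1ot1 and Kcnmb4os2, which are counted below with the potassium channel genes. Neither passed in any comparison of 2 regions. Every fold and log2 difference below refers to log2(intensity + 16), which makes folds of dim genes smaller than the ratio of their intensities, and every adjusted p is from limma with Benjamini-Hochberg adjustment over the 14208 genes.

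Potassium channels set the resting potential of a neuron, repolarise it after each spike and govern how soon it can fire again. Striatal projection neurons, the medium spiny neurons, are known for a very negative resting potential that is held by inward rectifier and leak channels, and for slow Kv1 and fast Kv4 currents that delay their firing. Neurons that fire fast rely on Kv3 channels, and calcium-activated channels link the calcium that enters with each spike to the hyperpolarisation that follows it. Most of these channels are tetramers of pore-forming alpha subunits, which auxiliary subunits modify.

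The arrays differed from one another, also within a region. Between 2270 and 2698 probe sets per array stood at a common floor of 15, and array medians lay between 93.9 and 102. The BNST 1 array correlated more closely across genes with NAc 3 (r = 0.965) than with BNST 2 (0.934) or BNST 3 (0.948), and NAc 1 correlated at 0.938 with NAc 2 and 0.909 with NAc 3, which correlated at 0.964 with each other. The summed intensity of 13 medium spiny neuron markers was 10520 on BNST 1, 4536 on BNST 2 and 8305 on BNST 3, against 18599 to 27810 in NAc and 34006 to 37311 in dStr. Of these markers 12 were lower in BNST than in dStr and none higher, and 10 were lower in BNST than in NAc. Astrocyte markers had 5 of 10 members higher in BNST than in dStr, and ependymal and choroid plexus markers 5 of 8. Microglial markers had 6 of 8 members lower in BNST than in dStr, endothelial and pericyte markers 2 of 6, and the markers of oligodendrocytes, their precursors and cholinergic neurons none in either direction. The part of these cell-type differences in the results below was not tested, and in such bulk tissue fewer cells of a type and less RNA per cell cannot be told apart.

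The largest set of differences lay between BNST and dStr, where 29 of the 66 potassium channel genes passed the test. Of these 21 were lower and 8 higher in BNST. Over all 14208 genes 14.3% were called in this comparison, 9.33% lower and 4.94% higher. The shares of potassium channel genes were 43.9% in either direction, 31.8% lower and 12.1% higher. The median log2 difference of the 66 genes was -0.21, and that of all genes was -0.06. The arrays of the 2 regions did not overlap for 38 of the 66 genes, 27 of them lower in BNST, against 36.4% of all genes (21.5% lower and 14.9% higher in BNST). The potassium channel genes higher and lower in BNST numbered 8 and 25 without BNST 1 and NAc 1, and 9 and 18 after quantile normalisation. Leaving out single arrays lowered the count of lower genes to 12 without BNST 2 and 13 without dStr 3. It lowered the count of higher genes to 4 when BNST 2 or dStr 3 was left out, and to 3 when BNST 3 or dStr 1 was left out. Quantile normalisation also moved the share of higher genes among all called genes to 52.0%, against 34.6% with the deposited scaling.

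**Figure D1:**
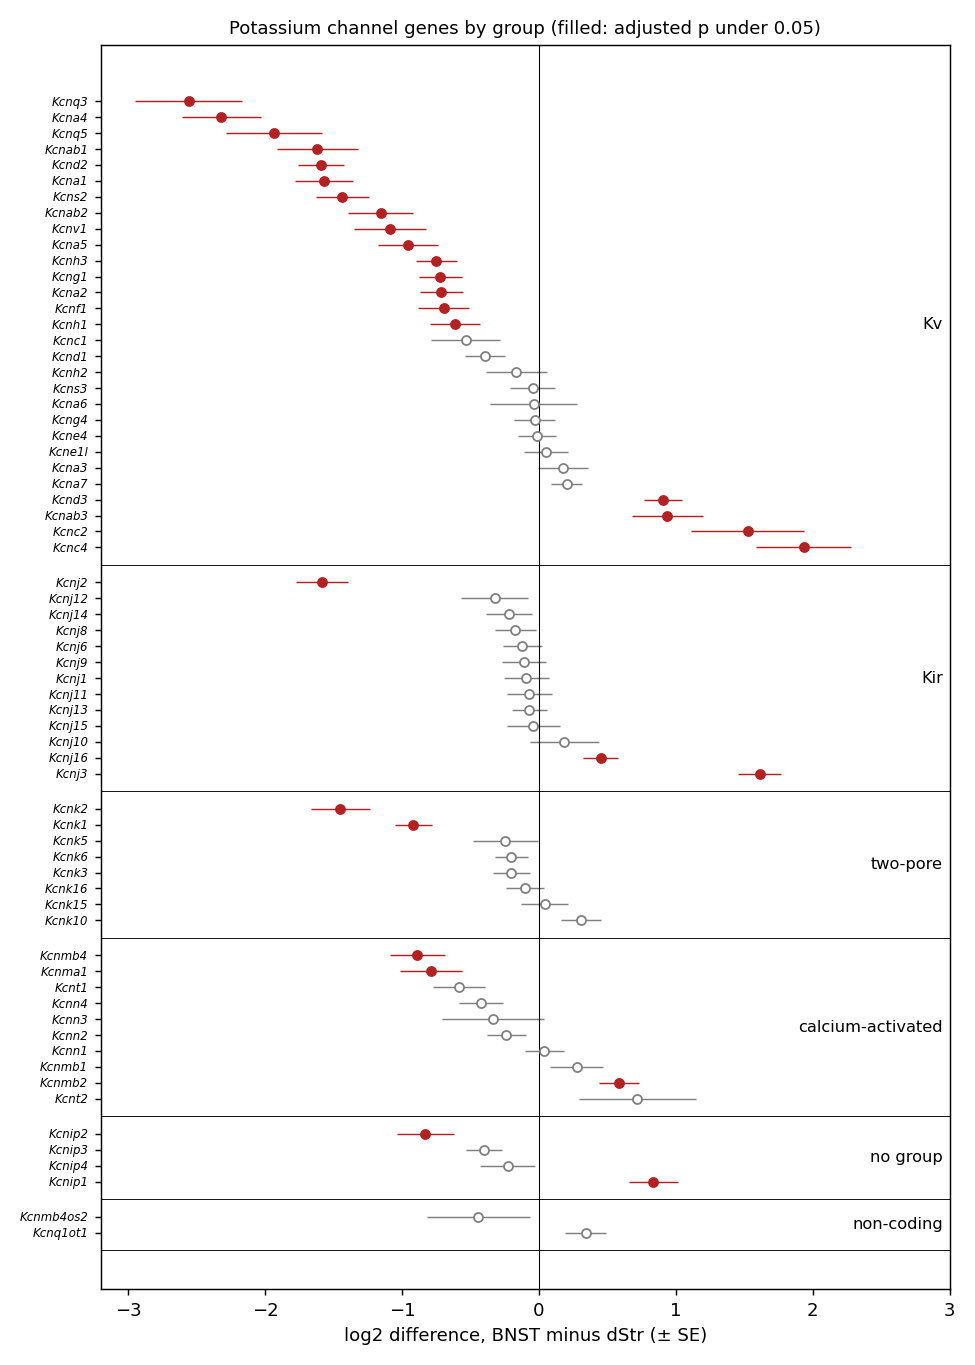
Log2 difference between BNST and dStr (horizontal axis, BNST minus dStr) for each of the 66 tested Kcn genes, in their groups by name, with 2 non-coding RNAs apart. Bars show the standard error of the fit, and filled symbols an adjusted p under 0.05. The filled Kv genes lie mostly to the left of 0, with 15 lower and 4 higher in BNST, whereas 10 of the 13 Kir genes are open symbols near 0.

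The Kv group held 19 of the 29 calls. Of its 29 tested genes 15 were lower and 4 higher in BNST than in dStr, with a median log2 difference of -0.62. The shares were 51.7% lower and 13.8% higher, against 9.33% and 4.94% of all genes. Among 18 genes for conducting alpha subunits 9 were lower and 3 higher. Among 6 genes for modifier subunits, which form no channel alone but alter Kv2 channels, 4 were lower and none higher. Of 5 auxiliary genes 2 were lower and 1 higher.

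The Kcnq genes encode the slow, non-inactivating M-current channels that acetylcholine closes through muscarinic receptors. Kcnq3 had intensities of 281, 74.2 and 92.9 on the BNST arrays, 361, 650 and 383 on the NAc arrays, and 802, 764 and 922 on the dStr arrays. All 3 BNST arrays lay below all arrays of the other regions, with BNST 1 far above the other BNST arrays. The gene was 5.90-fold lower in BNST than in dStr (log2 difference -2.56, SE 0.39, adjusted p = 0.00182), the largest difference of any tested potassium channel gene in this comparison. Its other kept probe set also passed, at -0.61. Kcnq5 had 365, 101 and 166 in BNST, 485, 780 and 570 in NAc, and 743, 730 and 787 in dStr. NAc and dStr overlapped for Kcnq5, while BNST lay below both. It was 3.83-fold lower in BNST than in dStr (SE 0.35 on the log2 scale, adjusted p = 0.00478) and 3.07-fold lower than in NAc (adjusted p = 0.043). All 3 of its kept probe sets passed in both comparisons, but the call against NAc ended without BNST 3 (adjusted p = 0.186). For Kcnq3 the difference between BNST and NAc was -1.70 (adjusted p = 0.055).

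The Kcna genes encode Kv1 subunits, whose low-threshold currents limit the excitability of axons and cell bodies. All 7 Kcna genes on the array were tested, and 4 of them, Kcna1, Kcna2, Kcna4 and Kcna5, were lower in BNST than in dStr. Kcna4, an inactivating subunit, had 113, 61.8 and 84.3 in BNST, 371, 247 and 147 in NAc, and 561, 441 and 459 in dStr. The 3 regions did not overlap. Kcna4 was 4.99-fold lower in BNST than in dStr (SE 0.29 on the log2 scale, adjusted p = 0.000587) and 2.54-fold lower than in NAc (adjusted p = 0.0407, and 0.169 without BNST 2). Kcna1, the subunit mutated in episodic ataxia, averaged 534 ± 142 (SD, n = 3 arrays) in BNST, 1348 ± 290 in NAc and 1581 ± 127 in dStr. That was 2.97-fold lower in BNST than in dStr (adjusted p = 0.000888) and 2.50-fold lower than in NAc (adjusted p = 0.0107, and 0.0534 without BNST 3). The 3 kept probe sets of Kcna1 all had this direction. Kcna3, Kcna6 and Kcna7 had log2 differences of 0.17, -0.04 and 0.20 between BNST and dStr, and none passed.

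Kcna5 followed another order of regions. Its intensities were 144, 102 and 162 in BNST, 435, 422 and 260 in NAc, and 283, 314 and 235 in dStr. The BNST arrays were the lowest, and the NAc mean was above the dStr mean although their arrays overlapped. Kcna5 was 2.53-fold lower in BNST than in NAc (SE 0.22, adjusted p = 0.0133) and 1.94-fold lower than in dStr (adjusted p = 0.0164). The first call ended without NAc 2 (0.0713) and the second without BNST 2 (0.0708). Kcna5, Kcna1 and Kcna6 are next to each other in the mouse genome, with 0 protein-coding genes between them in the RefSeq order of GRCm38.p6. Kcna1 and Kcna5 were thus lower in BNST, while Kcna6 had 458, 277 and 315 in BNST, 202, 372 and 518 in NAc, and 470, 307 and 302 in dStr, with all regions overlapping. Kcna2, a neighbour of Kcna3, averaged 561 ± 42.9 in BNST, 754 ± 135 in NAc and 933 ± 103 in dStr, 1.64-fold lower in BNST than in dStr (adjusted p = 0.013, but 0.0635 without dStr 3 and 0.0659 after quantile normalisation). A further kept probe set of Kcna2 gave -1.71 and a dimmer one 0.08.

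**Figure D2:**
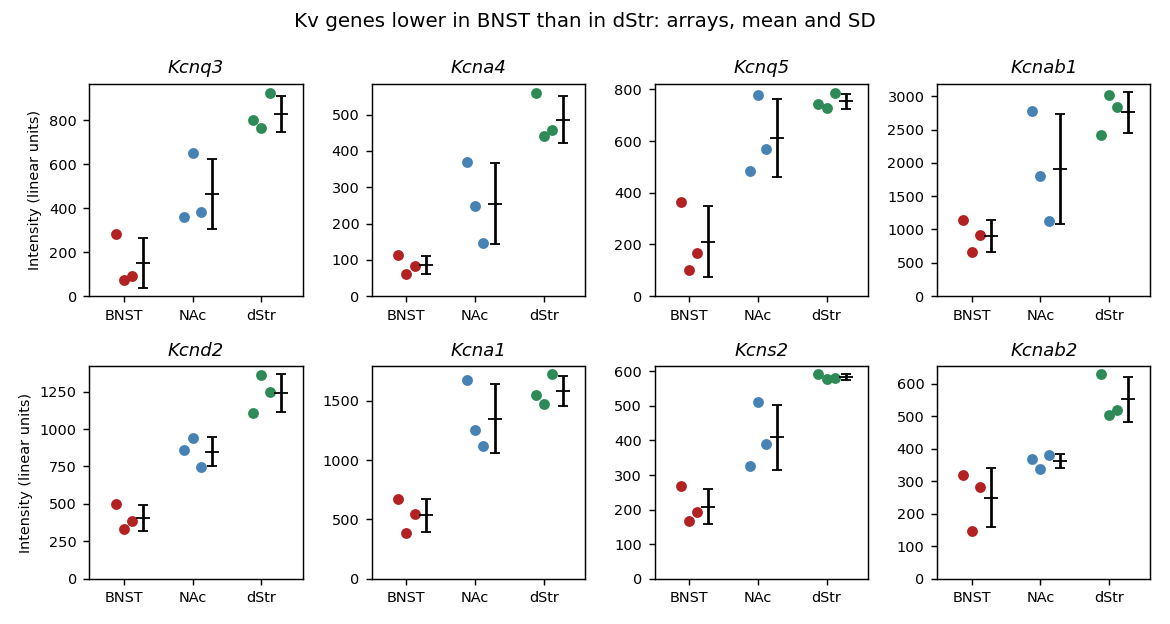
Intensity (vertical axes, linear units from 0) of the 8 Kv genes with the largest negative differences between BNST and dStr, with a point per array, and the mean and SD of 3 arrays as bars to the right of each region. In each panel the BNST points lie below the dStr points, and the Kcnq3 points of BNST run from 74.2 to 281 while those of dStr run from 764 to 922.

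The Kvβ genes encode cytoplasmic subunits of Kv1 channels. Kcnab1, which speeds inactivation, had 1137, 656 and 923 in BNST, 2772, 1803 and 1132 in NAc, and 2415, 3019 and 2841 in dStr. Its spread was widest in NAc, where NAc 3 lay just below BNST 1. Kcnab1 was 3.07-fold lower in BNST than in dStr (SE 0.30, adjusted p = 0.00514). Kcnab2 averaged 249 ± 90.2 in BNST and 551 ± 67.7 in dStr, 2.23-fold lower (adjusted p = 0.00887), although its other kept probe set stood at 0.23 and the mean of both did not pass (adjusted p = 0.108). Kcnab3 went the other way, at 259 ± 25.6 in BNST and 135 ± 57.9 in dStr, 1.91-fold higher in BNST (adjusted p = 0.0365), although its other kept probe set stood at 0.04. The auxiliary genes Kcne4 and Kcne1l had log2 differences of -0.01 and 0.05, and neither passed. The call for Kcnab3 ended without BNST 3, at an adjusted p of 0.135.

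Genes of the Kv4 channel complex were lower in BNST for some members and higher for others. Kv4 channels carry the transient A-type current of dendrites, and Kcnd2 and Kcnd3 encode their alpha subunits. KChIP proteins (Kcnip genes) bind calcium and bring these subunits to the membrane, and the dipeptidyl peptidase-like proteins encoded by Dpp6 and Dpp10 speed their gating. Kcnd2 had 498, 331 and 385 in BNST, 859, 938 and 748 in NAc, and 1109, 1363 and 1244 in dStr. No arrays of different regions overlapped, and the 3 kept probe sets had log2 differences from -2.28 to -1.59 between BNST and dStr, all past the test. Kcnd2 was 3.01-fold lower in BNST than in dStr (SE 0.17, adjusted p = 0.000239) and 2.07-fold lower than in NAc (adjusted p = 0.0115, and 0.0649 without NAc 2).

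Kcnd3 was highest where Kcnd2 was lowest. It had 685, 573 and 665 in BNST, 597, 567 and 564 in NAc, and 366, 363 and 280 in dStr. The dStr arrays lay below all others, and BNST and NAc overlapped. Kcnd3 was 1.87-fold higher in BNST than in dStr (SE 0.14, adjusted p = 0.00213) and 1.69-fold higher in NAc than in dStr (adjusted p = 0.0215, and 0.106 without dStr 3). Its second kept probe set, at intensities near 90, gave 0.25 and 0.12 in these comparisons, and neither passed. Kcnd1 had a log2 difference of -0.40 between BNST and dStr (adjusted p = 0.102).

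The KChIP genes also parted. Kcnip2, a KChIP partner of Kv4 channels, averaged 1139 ± 225 in BNST, 1612 ± 366 in NAc and 2025 ± 306 in dStr. It was 1.78-fold lower in BNST than in dStr (SE 0.21, adjusted p = 0.0236, and 0.095 without BNST 2). Kcnip1 had 238, 304 and 353 in BNST, 350, 229 and 302 in NAc, and 154, 166 and 155 in dStr. Every BNST and NAc array lay above every dStr array, and Kcnip1 was 1.78-fold higher in BNST than in dStr (adjusted p = 0.0118, and 0.0603 without BNST 3). Its 4 kept probe sets had log2 differences from -0.08 to 0.95 between BNST and dStr, and 2 of them passed as higher when tested singly. Between NAc and dStr the log2 difference of Kcnip1 was 0.81 (adjusted p = 0.052). With each kept probe set tested on its own, another probe set of Kcnip1 was higher in NAc at 0.70, and 1 probe set of Kcnd2 was lower in NAc at -1.14. Kcnip3 and Kcnip4 had log2 differences of -0.40 and -0.23 between BNST and dStr, and neither passed.

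Dpp6 and Dpp10 come from a list of 25 partner genes outside the Kcn names, of which 17 were tested. Dpp6 had 712, 1070 and 1091 in BNST, 494, 544 and 740 in NAc, and 319, 436 and 380 in dStr. Dpp10 had 650, 520 and 664 in BNST, 697, 656 and 585 in NAc, and 392, 249 and 338 in dStr. Both genes had all BNST and NAc arrays above all dStr arrays. Dpp6 was higher in BNST than in dStr by a log2 difference of 1.29 (SE 0.21, adjusted p = 0.0027), and Dpp10 by 0.89 (SE 0.18, adjusted p = 0.0079). Dpp10 was also higher in NAc than in dStr, by 0.97 (adjusted p = 0.0195). Of the 17 partner genes 3 were higher and 3 lower in BNST than in dStr, against 4.94% and 9.33% of all genes. The third higher gene was Vapb (0.68), which binds Kv2 channels at junctions with the endoplasmic reticulum. The lower genes were Akap5, an anchor of kinases at M-current channels (-1.73), Lgi1, a secreted regulator of Kv1 channels (-0.95), and Abcc9, a sulfonylurea receptor of vascular KATP channels (-0.51). Abcc9 is also counted among the endothelial and pericyte markers above. Akap5 was also lower in BNST than in NAc (-1.56, adjusted p = 0.00198), at 427 ± 92.4 in BNST and 1282 ± 184 in NAc.

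**Figure D3:**
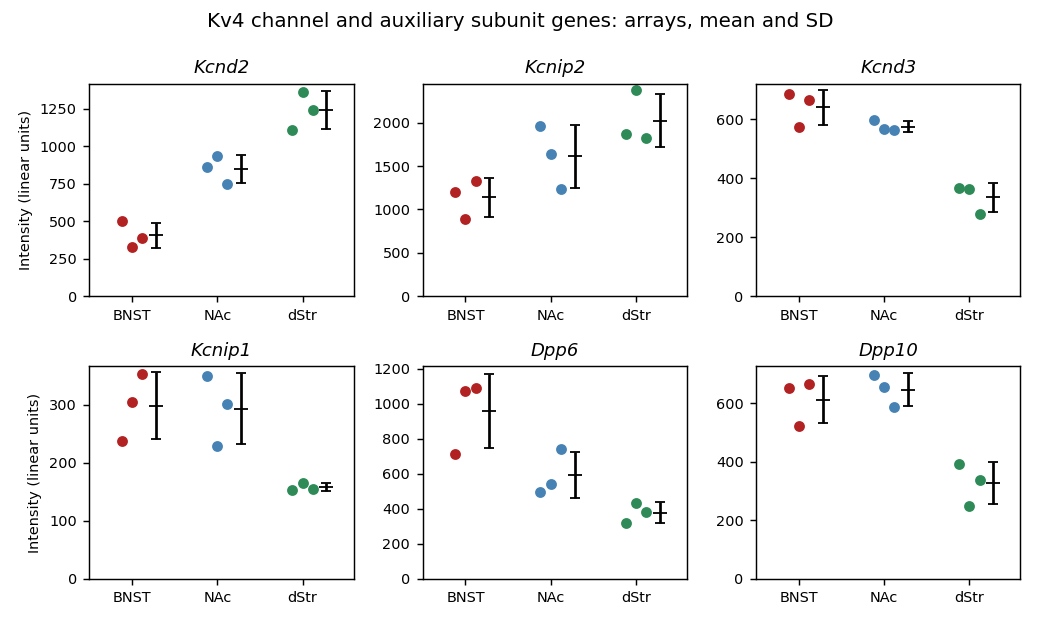
Intensity (vertical axes, linear units from 0) of 6 genes of the Kv4 channel complex, with a point per array, and the mean and SD of 3 arrays beside each region. Kcnd2 and Kcnip2 are lowest in BNST, whereas Kcnd3, Kcnip1, Dpp6 and Dpp10 are lowest in dStr.

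Kv3 channels, encoded by Kcnc genes, open only at strong depolarisation and allow fast spiking. Kcnc4 had 277, 247 and 218 in BNST, 60.1, 140 and 245 in NAc, and 48.8, 54.5 and 55.1 in dStr. It was 3.82-fold higher in BNST than in dStr (SE 0.34, adjusted p = 0.00438), although its other kept probe set stood at -0.23. Kcnc2 had 209, 150 and 164 in BNST, 56.7, 216 and 273 in NAc, and 57.3, 54.4 and 38.7 in dStr. It was 2.87-fold higher in BNST than in dStr (SE 0.42, adjusted p = 0.0348, and 0.122 without dStr 3). For both genes NAc 1 lay near the dStr arrays and NAc 3 within or above the range of the BNST arrays. Kcnc1 averaged 565 ± 182 in BNST, 785 ± 242 in NAc and 801 ± 65.3 in dStr and did not pass in any comparison. Of 3 tested markers of parvalbumin interneurons, a fast-spiking class, none was higher in BNST than in dStr and Kit was lower, while Pvalb itself had 131, 133 and 116 in BNST 163, 105 and 132 in NAc, and 131, 189 and 173 in dStr.

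The remaining Kv genes that passed between BNST and dStr were all lower in BNST. Kcns2, a modifier subunit, had 267, 167 and 193 in BNST, 327, 510 and 390 in NAc, and 593, 578 and 581 in dStr. The regions did not overlap. Kcns2 was 2.71-fold lower in BNST than in dStr (SE 0.19, adjusted p = 0.000931) and 1.89-fold lower than in NAc (adjusted p = 0.0388, and 0.174 without BNST 3). The modifier genes Kcnv1 (2.13-fold), Kcng1 (1.65-fold) and Kcnf1 (1.62-fold) were lower too, with adjusted p of 0.0199, 0.0127 and 0.0316. These calls ended without 1 array, at 0.0837 for Kcnv1 and 0.12 for Kcnf1 without BNST 2 and 0.0641 for Kcng1 without BNST 3. The other kept probe set of Kcnf1 stood at 0.35, and the mean of both gave -0.17 (adjusted p = 0.577). Kcns3 and Kcng4 had log2 differences of -0.05 and -0.03 and did not pass. Kcnh3, of the Elk channels, was 1.68-fold lower (adjusted p = 0.00826), where another of its 4 kept probe sets also passed, at -0.79, and the others stood at 0.32 and -0.09, and their mean did not pass (adjusted p = 0.181). Kcnh1, of the Eag channels, averaged 225 ± 53.5 in BNST, 405 ± 50.6 in NAc and 350 ± 52.5 in dStr, with adjusted p of 0.0491 against dStr and 0.0493 against NAc. Without BNST 3 these were 0.179 and 0.213, and both Kcnh1 calls held in 8 of 20 alternatives.

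In the Kir group 23.1% of the tested genes were called between BNST and dStr, 15.4% higher and 7.69% lower. Over all genes these shares were 14.3%, 4.94% and 9.33%. Of its 13 tested genes 2 were higher and 1 lower in BNST than in dStr, and the other 10 had log2 differences between -0.32 and 0.19. Kcnj3, a subunit of the GIRK channels that G-protein-coupled receptors open, had 267, 219 and 284 in BNST, 69.6, 100.4 and 74.6 in NAc, and 71.9, 69.9 and 76.6 in dStr. All BNST arrays exceeded all others by a wide margin, and NAc and dStr overlapped. Kcnj3 was 3.05-fold higher in BNST than in dStr (SE 0.15, adjusted p = 0.000152) and 2.80-fold higher than in NAc (adjusted p = 0.00129). Of its 3 other kept probe sets, 1 also passed between BNST and dStr at 0.73 and the others stood at 0.19 and -0.26. The mean of its probe sets was still higher in BNST than in dStr (adjusted p = 0.00711) but not past the test against NAc (0.0533). The GIRK partners Kcnj6 and Kcnj9 had log2 differences of -0.12 and -0.11 between BNST and dStr and neither passed. A list of markers of excitatory neurons of cortex or thalamus had 4 tested members. Of these Slc17a6 (2.11) and Prkcd (1.18) were higher in BNST than in dStr, and the other 2 did not pass. The summed intensity of the list overlapped between the regions, at 1986 to 2649 in BNST and 2001 to 2674 in dStr. A sum depends mostly on the brightest members, so it cannot show whether the list differed as a set. The median log2 difference of the 4 genes was 0.69, and the list was not tested as a set. Slc17a6 had 144, 177 and 196 in BNST, against 19.0, 30.0 and 34.8 in dStr. The part of these markers in the Kcnj3 result was not tested.

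Kcnj2, a strong inward rectifier that holds the resting potential of medium spiny neurons, had 35.0, 26.5 and 27.7 in BNST, 80.2, 74.9 and 41.1 in NAc, and 113, 127 and 122 in dStr. The regions did not overlap. Kcnj2 was 3.00-fold lower in BNST than in dStr (SE 0.19, adjusted p = 0.000491), and its differences of -0.80 between BNST and NAc and -0.79 between NAc and dStr had adjusted p of 0.0637 and 0.0759. Its intensities in BNST were close to the array floor of 15, so the pseudocount weighs on this fold. With a pseudocount of 1 the log2 difference was -2.00 and with 64 it was -0.98. Kcnj16, which lies next to Kcnj2 with 0 protein-coding genes between them, had 130, 159 and 127 in BNST, against 101, 94.2 and 94.8 in dStr. It was 1.37-fold higher in BNST (adjusted p = 0.0395, and 0.152 without BNST 2), the direction opposite to that of its neighbour. Kcnj10, the glial partner of Kcnj16, averaged 1144 ± 153 in BNST, 1212 ± 524 in NAc and 1005 ± 145 in dStr and did not pass, with 1817 on NAc 3 against 899 and 921 on the other NAc arrays. Kcnj11, the pore of KATP channels, averaged 1489 ± 107 in BNST and 1584 ± 311 in dStr, at a log2 difference of -0.07.

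Leak channels of the tandem-pore group had 2 of 8 tested genes lower in BNST than in dStr and none higher. The 2 lower genes were 25% of the group, and over all genes 9.33% were lower and 4.94% higher. Kcnk2 encodes TREK-1, a leak channel opened by stretch and lipids. It had 565, 423 and 418 in BNST, 1287, 741 and 747 in NAc, and 1276, 1359 and 1256 in dStr. NAc 1 lay within the dStr range and the other NAc arrays between the regions. Kcnk2 was 2.73-fold lower in BNST than in dStr (SE 0.21, adjusted p = 0.00151), and the difference from NAc was -0.92 (adjusted p = 0.0568). Kcnk1, the weak rectifier TWIK-1, had 329, 275 and 322 in BNST, 449, 350 and 355 in NAc, and 593, 605 and 588 in dStr. The dStr arrays were tightly grouped and above all others, and Kcnk1 was 1.89-fold lower in BNST than in dStr (SE 0.14, adjusted p = 0.0017). Between NAc and dStr it stood at -0.62 (adjusted p = 0.051). The other 6 genes, among them Kcnk5 and Kcnk15, had log2 differences between -0.25 and 0.31.

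Among 10 calcium-activated genes 2 were lower and 1 higher in BNST than in dStr. These were 20% and 10% of the group, against 9.33% and 4.94% of all genes. Kcnma1 encodes the large-conductance BK channel, which repolarises the spike. It had 208, 187 and 142 in BNST, 313, 343 and 177 in NAc, and 316, 310 and 329 in dStr. Kcnma1 was 1.73-fold lower in BNST (adjusted p = 0.0421, and 0.171 without BNST 3), and 4 of its 5 kept probe sets passed as lower when each was tested on its own, down to -1.59. Its neuronal β4 subunit gene Kcnmb4 was 1.85-fold lower, at 217 ± 28.6 in BNST and 415 ± 25.5 in dStr (adjusted p = 0.0142, and 0.0633 without BNST 2). The β2 gene Kcnmb2, which gives BK currents that inactivate, was 1.50-fold higher, at 116 ± 16.5 in BNST and 71.7 ± 10.0 in dStr (adjusted p = 0.0225). Its other kept probe set stood at 0.02, the mean of both gave 0.30 (adjusted p = 0.186), and the adjusted p was 0.0955 without dStr 3. The SK channel genes Kcnn1, Kcnn2 and Kcnn3, which shape the pause after a spike, did not pass, at log2 differences of 0.04, -0.24 and -0.34. Kcnt1, a sodium-activated channel, stood at -0.58 (adjusted p = 0.0645), and 2 of its 3 kept probe sets passed as lower when tested on their own. Kcnt2 had 487 on BNST 1 against 181 and 196 on the other BNST arrays, and did not pass.

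**Figure D4:**
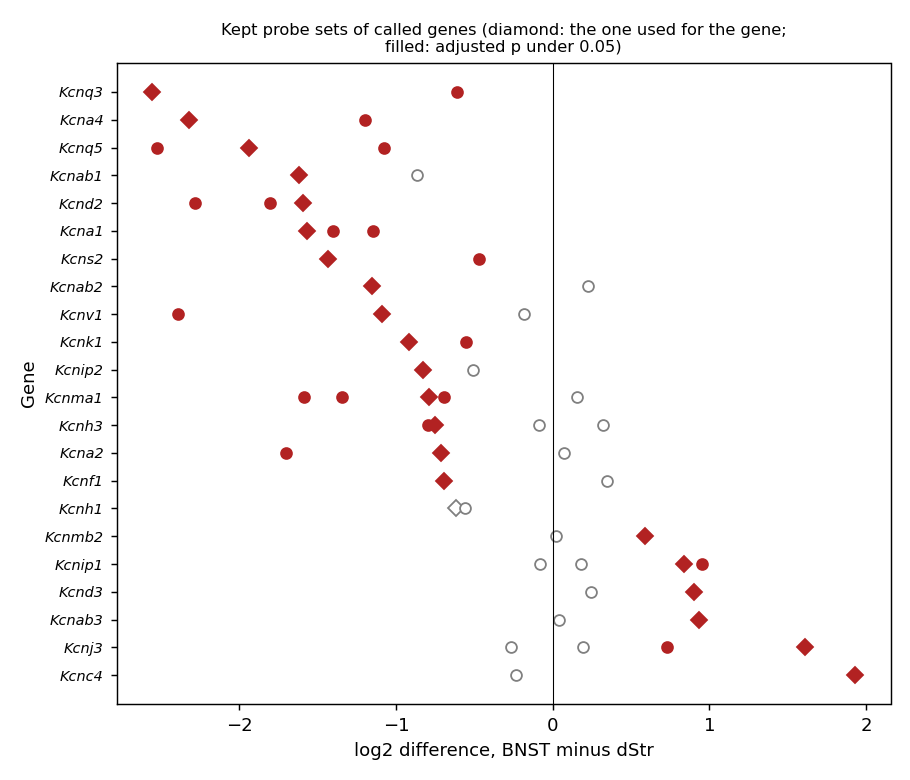
Log2 difference between BNST and dStr (horizontal axis, BNST minus dStr) of every kept probe set of the 22 called genes that have several, with a diamond for the probe set that stood for the gene and filled symbols for an adjusted p under 0.05 when probe sets were tested singly. For 14 of the 22 genes all probe sets lie on the same side of 0, and for 8 they lie on both sides, none of them with filled symbols on both.

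Between BNST and NAc 8 of the 66 potassium channel genes passed, 7 lower and 1 higher in BNST. Over all genes 2.24% were called, 1.48% lower and 0.760% higher. The 7 lower genes, Kcnq5, Kcna4, Kcna5, Kcna1, Kcnd2, Kcns2 and Kcnh1, all belonged to the Kv group, and Kcnj3 was the higher one. No tandem-pore or calcium-activated gene passed. The arrays did not overlap for 22 of the 66 genes, 19 of them lower in BNST, against 14.6% of all genes (8.85% lower and 5.79% higher in BNST). The count of lower genes was 15 without BNST 1 and NAc 1 and 4 with a replicate block. It was 0 with the arrays of the pair alone, when Kcnj3 was the call that held. Without 1 array it was 10 (BNST 1), 2 (BNST 2), 1 (BNST 3), 6 (NAc 1), 1 (NAc 2), 10 (NAc 3) or 3 (any dStr array). Kcnj3 was the 1 call of the 8 that passed whichever array was left out. The comparison shares its BNST arrays with that between BNST and dStr, so the values of these genes in both are not independent.

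Between NAc and dStr Kcnd3, higher in NAc, was the 1 gene of 66 (1.52%) that passed limma's test. Over all genes 2.05% were called, 0.950% higher and 1.10% lower in NAc. Without BNST 1 and NAc 1 the counts were 4 higher and 5 lower, without NAc 1 alone 3 higher and 4 lower, and without BNST 1 alone 2 higher and 1 lower. They were 0 and 0 without NAc 3 or without any 1 of the dStr arrays. The arrays did not overlap for 17 genes, 6 higher and 11 lower in NAc, against 19.1% of all genes (9.11% higher and 10.0% lower in NAc). Over the 3 regions together 21 of the 66 genes passed the limma F test, against 10.3% of all genes. That count was 13 when BNST 3, dStr 1 or dStr 3 was left out.

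NAc lay between the other regions for most of the 29 genes that differed between BNST and dStr. Its mean on the log2 scale was between the BNST and dStr means for 19 of the 21 genes lower in BNST, and above both for Kcna5 and Kcnh1. It was between them for all 8 genes higher in BNST. Over all genes called in that comparison the share between was 92.7% of those lower and 90.0% of those higher in BNST. The position varied between genes: the NAc mean was close to dStr for Kcna1 and Kcnq5, close to BNST for Kcnd3 and Kcnip1, and close to dStr for Kcnj3.

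**Figure D5:**
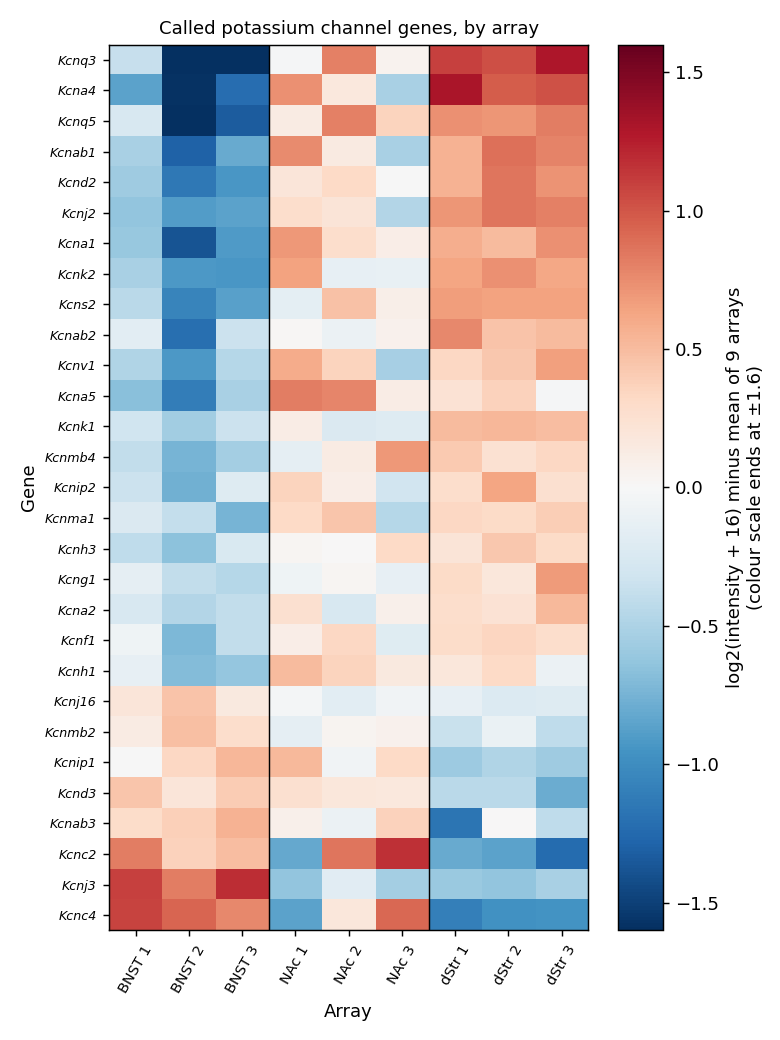
Level of the 29 potassium channel genes that passed between BNST and dStr, on each array (columns), as log2(intensity + 16) minus the gene's mean over 9 arrays (colour, red above and blue below the mean), with genes ordered by their difference between BNST and dStr. In the upper 21 genes the BNST columns are blue and the dStr columns mostly red, BNST 1 is the palest BNST column for most of them, and the NAc columns vary from array to array.

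Within BNST many of these genes had the same order of arrays. Of the 21 genes lower in BNST, 17 had their highest BNST value on BNST 1 and 18 their lowest on BNST 2. The order was not counted over all genes lower in BNST, so it is not shown to be particular to potassium channel genes. The summed medium spiny neuron markers were also highest on BNST 1 and lowest on BNST 2, and a link between the 2 orders was not tested. In NAc 11 of the 21 genes were highest on NAc 1 and 12 were lowest on NAc 3, and the marker sum was 27810 on NAc 1 and 18599 on NAc 3. In dStr the order was mixed, since dStr 2 was highest for 10 of the 21 genes and lowest for 10, and the marker sums were 34006, 37265 and 37311. The 8 genes higher in BNST had no such order within BNST, with 3, 2 and 3 of them highest on BNST 1, BNST 2 and BNST 3.

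Promoter sequence was available for some of these genes and is shown for 5 with 1 start each in the promoter table that stand for the patterns above: Kcna4, Kcnd2 and Kcnj2, lower in BNST, and Kcnd3 and Kcnj3, higher. The sequences are the 250 bases before that start, 5′ to 3′ on the plus strand, from RefSeq (GRCm38.p6). Kcna4 is at chr2:107290339-107290588, Kcnd2 at chr6:21215096-21215345, Kcnj2 at chr11:111065914-111066163, Kcnd3 at chr3:105451640-105451889 and Kcnj3 at chr2:55435720-55435969. The windows of Kcna4, Kcnd2, Kcnj2 and Kcnd3 end where the gene begins in the RefSeq gene table. The Kcnj3 window lies inside the span given there for that gene, downstream of its outermost start. Capitals mark matches on either strand to any of 5 motifs. The motif of the GC box was GGGCGG, and that of the cyclic AMP response element was TGACGTCA. The E-box was searched as CACGTG, the TATA box as TATAAA, and the last motif by the letters CCAAT. No searched motif contains another.
Kcna4: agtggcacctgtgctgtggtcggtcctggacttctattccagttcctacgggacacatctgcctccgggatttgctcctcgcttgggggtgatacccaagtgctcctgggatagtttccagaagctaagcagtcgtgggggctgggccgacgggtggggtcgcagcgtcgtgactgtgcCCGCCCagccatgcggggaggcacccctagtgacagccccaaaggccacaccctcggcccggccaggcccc
Kcnd2: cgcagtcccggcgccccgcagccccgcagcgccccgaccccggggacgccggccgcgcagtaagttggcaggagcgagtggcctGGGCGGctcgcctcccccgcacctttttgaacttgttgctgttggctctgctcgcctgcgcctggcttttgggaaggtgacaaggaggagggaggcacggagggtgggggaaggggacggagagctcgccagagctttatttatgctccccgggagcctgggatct
Kcnj2: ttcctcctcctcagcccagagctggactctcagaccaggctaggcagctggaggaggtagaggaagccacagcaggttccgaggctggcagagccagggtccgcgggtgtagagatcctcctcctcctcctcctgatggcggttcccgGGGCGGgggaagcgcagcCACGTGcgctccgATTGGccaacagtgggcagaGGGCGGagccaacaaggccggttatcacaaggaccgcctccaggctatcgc
Kcnd3: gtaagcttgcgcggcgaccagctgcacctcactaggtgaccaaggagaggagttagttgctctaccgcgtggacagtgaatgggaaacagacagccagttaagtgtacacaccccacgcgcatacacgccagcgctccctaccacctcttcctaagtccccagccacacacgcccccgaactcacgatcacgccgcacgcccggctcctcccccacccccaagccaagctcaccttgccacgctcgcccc
Kcnj3: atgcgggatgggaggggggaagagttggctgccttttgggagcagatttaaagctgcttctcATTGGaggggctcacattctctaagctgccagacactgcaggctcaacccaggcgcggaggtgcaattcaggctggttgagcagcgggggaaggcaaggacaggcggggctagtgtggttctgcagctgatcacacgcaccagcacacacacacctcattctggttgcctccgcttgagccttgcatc
The GC content of these windows was 65.2% for Kcna4, 68.8% for Kcnd2, 65.6% for Kcnj2, 62.8% for Kcnd3 and 58.4% for Kcnj3, against a median of 52.4% over 32851 windows of the same length. Other called genes with 1 start lay on both sides of that median, such as Kcnk1 (44.4%) and Kcnmb4 (83.6%). Kcna4 and Kcnd2 each had 1 GC box and Kcnj2 had 2, a motif found in 32.7% of all windows. Kcnj2 also had 1 E-box (6.02% of windows) and 1 CCAAT box (33.8%), and Kcnj3 had 1 CCAAT box. No match was found in the Kcnd3 window. None of the 5 windows held the cyclic AMP response element (1.55% of windows) or the TATA box (12.4%). A match or its absence describes the letters of this window and says nothing of binding.

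The 18 genes that were not tested had 21 probe sets, and the highest value of each gene on any array ran from 15.6 to 100.4, with a median of 61.7. The 40th percentile of the arrays lay between 71.5 and 76.6. They were Kcne1, Kcne2, Kcne3, Kcng2, Kcnh5, Kcnh7, Kcnh8, Kcnq1, Kcns1 and Kcnv2 of the Kv group, Kcnj4 and Kcnj5 of the Kir group, Kcnk4, Kcnk7, Kcnk12 and Kcnk13 of the tandem-pore group, Kcnu1 and Kcnmb4os1. With no filter 1 of these 18 passed: Kcng2, a modifier subunit gene, had 69.2, 38.3 and 43.1 in BNST, against 27.1, 17.4 and 15.0 in dStr, with 1 dStr array at the floor, and was higher in BNST (log2 difference 0.87, adjusted p = 0.0281). Kcne2, a marker of choroid plexus in the mouse brain, had at most 30.9 on any array. Kcnj4, another strong inward rectifier, had 58.9, 41.9 and 32.5 in BNST and 87.3, 54.6 and 57.8 in dStr, and did not pass.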

How the data were processed

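Probe-set intensities, deposited by the authors as linear values in 1 table of 45037 probe sets and 9 arrays, were used with the deposited scaling. How the authors summarised and scaled them is not given in the sources used here. Symbols came from the platform annotation. A total of 34945 probe sets had 1 symbol, 932 several and 9160 none, and the Entrez identifiers of 34741 were found in the GRCm38.p6 gene table, which changed 0 symbols. Probe sets above their array's 40th percentile on 3 or more arrays were kept. The kept probe set with the highest mean stood for its gene. Values were tested as log2(intensity + 16) with limma 3.58.1 in R 4.3.3, in 1 model with a mean per region and 6 residual degrees of freedom. Tests were 2-sided, Benjamini-Hochberg adjusted over 14208 genes, with a threshold of 0.05. With 9 arrays, their number limits the precision.

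The members and lists were chosen with earlier results of these data known. Named were up to 12 passing Kcn genes per direction and comparison, up to 4 of high mean per group, and partner genes that passed. The lower genes beyond the 12, and other genes that did not pass, were added after their values were seen. Simulated data with known changes were used to test the fit. Alternatives were other scalings, filters, pseudocounts, probe-set rules, priors, a replicate block, pairs of regions alone, and arrays left out.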

Additional observations from a re-analysis of the deposited data

How the results depend on the processing

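With the probe set of a gene kept, or the mean of its kept probe sets, no called potassium channel gene changed direction. Single probe sets of 8 of the genes called between BNST and dStr had both signs, none passing in opposite directions. Between BNST and dStr 13 of the 29 calls passed under every such alternative that gave them a value: Kcna1, Kcna4, Kcnab1, Kcnc4, Kcnd2, Kcnd3, Kcnj2, Kcnj3, Kcnk1, Kcnk2, Kcnq3, Kcnq5 and Kcns2. Kcnj2, Kcnj16, Kcng1 and Kcnmb2 were not tested under the 60th percentile filter. Of the 8 calls between BNST and NAc 0 did, nor did the 1 between NAc and dStr. The mean of kept probe sets gave Kcnf1 an adjusted p of 0.577 and Kcnh3 one of 0.181 between BNST and dStr. The causes were not tested. Over all genes, leaving out 1 array gave 101 to 617 calls between BNST and NAc, 1112 to 2674 between BNST and dStr, 112 to 419 between NAc and dStr, and 740 to 1962 by the F test. For potassium channel genes it gave 1 to 2 higher and 1 to 10 lower between BNST and NAc, 3 to 8 higher and 12 to 23 lower between BNST and dStr, 0 to 3 higher and 0 to 4 lower between NAc and dStr, and 13 to 25 by the F test. Without BNST 1 and NAc 1 there were 2203, 4150, 707 and 3686 calls over all genes in these 4 tests, and for potassium channel genes 15 lower between BNST and NAc and 4 higher and 5 lower between NAc and dStr. The sources used here do not say whether same-numbered arrays are paired. Deviations of same-numbered arrays from their region means correlated at -0.51 to 0.26, which cannot decide this with 3 arrays per region. With a replicate block there were 196 calls between BNST and NAc, 183 between NAc and dStr and 953 by the F test over all genes, and 4 lower potassium channel genes between BNST and NAc and 0 higher between NAc and dStr. Between BNST and NAc the arrays of the pair alone gave 71 calls over all genes and 0 lower potassium channel genes, no filter gave 3 lower, and the mean of kept probe sets gave 0 higher. Between NAc and dStr the 60th percentile filter and single probe sets each gave 2 higher and 1 lower, the mean of kept probe sets 0 higher and 1 lower, the trend and robust prior 2 higher, and a pseudocount of 64 gave 1 lower. Quantile normalisation moved the share of higher genes among all genes called between BNST and NAc to 46.0%, against 34.0%. Intensities near the floor of 15 limit what can be said of dim genes.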
